A study of Mus musculus with 9 samples.

Results

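Transcript levels of 9 genes that hold T cells in a resting state were followed in activated mouse CD4+ T cells: the transcription factor genes Tcf7, Lef1, Bach2, Satb1, Foxo1 and Foxp1, and the antiproliferative genes Btg1, Btg2 and Tob1. The genes were selected by symbol and role, with earlier results of these data known. Each was represented by the RefSeq transcript with the highest total count. All 9 were found among the 25160 genes of the table, and all 9 passed the filter on low counts that left 11256 genes for testing.

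A naive T cell does not divide, makes little RNA and protein, and keeps this quiescent state by active transcriptional programmes. TCF-1 (the product of Tcf7) and LEF-1 are HMG-box factors that bind DNA at related sites and can recruit β-catenin through their N-terminal regions. FOXO1 is kept in the nucleus of resting cells, where it drives genes of homing and survival, and leaves it when AKT phosphorylates it after receptor stimulation. FOXP1 acts beside it as a forkhead repressor in naive cells, BACH2 represses effector genes at AP-1 type sites, and SATB1 organises chromatin at T cell loci. BTG1, BTG2 and TOB1 share a BTG/TOB domain and link the CCR4-NOT deadenylase to mRNA poly(A) tails, and Btg1 and Btg2 together are known to keep mouse T cells quiescent.

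Flow-sorted naive CD4+ T cells from spleens of C57BL/6 mice were stimulated on plates coated with 1 µg/ml of anti-CD3e, an antibody that triggers the T cell receptor complex. The series asks what the T cell's own CD40L, a TNF-family ligand, does to the cell that carries it. Wild-type (WT) cells received 19 µg/ml of anti-CD40L or 19 µg/ml of an isotype control antibody. A further group, titled KO, came from mice that carry a Cre and lack CD40L in T cells by the series' design, and received 19 µg/ml of the isotype antibody. No KO group on anti-CD40L is among the 9 libraries. Effects of the antibody that need no CD40L therefore cannot be told apart from those that pass through CD40L. Each group had 3 libraries of bulk RNA, whose labels do not say whether they came from separate mice or cultures, so p-values measure the spread between these libraries only. The Cre driver, the deleted part of the gene and the hours of stimulation were not given in the sources used here.

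Total counts were 5316482 to 15565711 per library. The shallowest library, WT anti-CD40L replicate 3, also detected the fewest genes, 11673 against 14290 to 17428 in the other 8, and stood apart on the first principal component. Cd40lg itself had 109, 132 and 163 CPM (counts scaled to library size) on anti-CD40L, 145, 136 and 150.2 CPM in the KO libraries, and 142, 154 and 189 CPM on isotype. It differed by -0.17 ± 0.13 (log2, SE) between KO and WT isotype libraries, with an edgeR adjusted p of 0.935, and since the deleted part is not known this value does not check the label; the libraries are called KO as labelled. The summed level of 14 T cell identity genes was 6893 to 7407 CPM on anti-CD40L, 6952 to 7473 CPM in libraries labelled KO and 7385 to 7902 CPM on isotype, and all 14 were tested. The 10 B cell markers summed to 4.78 to 15.0 CPM on anti-CD40L and 7.98 to 20.3 CPM in KO libraries. On isotype they summed to 13.4 to 40.4 CPM. The 9 myeloid markers summed to at most 0.627 CPM on anti-CD40L and to 3.67 to 4.01 CPM on isotype. In KO replicates 1, 2 and 3 they summed to 13.4, 2.49 and 2.74 CPM. Replicate 1 was the only library with counts of S100a8 and S100a9 (25 and 43). In WT anti-CD40L replicate 3 the B cell markers Ms4a1, Pax5, Blk, Fcer2a, Cd22 and Cr2 and all 9 myeloid markers had a count of 0. The part of such cells in the results below was not tested. In bulk samples, fewer cells of a type and less RNA per cell cannot be told apart.

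Of the 9 genes, 5 fell in WT cells on anti-CD40L relative to WT cells on isotype and none rose. Btg2 and Tob1 fell most, by 1.0 and 0.80 on the log2 scale, and Lef1, Tcf7 and Foxo1 fell by 0.52, 0.36 and 0.33. Bach2, Satb1, Foxp1 and Btg1 did not pass the test. Of all 11256 genes tested, 6.46% were called lower and 2.91% higher at an adjusted p under 0.05 (edgeR quasi-likelihood test, Benjamini-Hochberg adjustment over all tested genes). DESeq2 and limma-voom with quality weights each called 6 of the 9, with 14.5% and 14% of all genes, and edgeR without a filter called 5, with 8.64%. The median log2 difference was -0.33 over the 9 genes and -0.01 over all genes. Each gene's 3 libraries on anti-CD40L lay below all 3 on isotype for 6 of the 9 genes, against 17.2% of all genes. Without the library that stood apart, WT anti-CD40L replicate 3, 4 of the 9 were called, beside 989 of 11468 genes in all. These were all but Foxo1 of the 5 (log2 -0.92 for Btg2, -0.78 for Tob1, -0.64 for Lef1 and -0.34 for Tcf7). In the libraries labelled KO, none of the 9 genes passed the test against WT isotype.

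**Figure D1:**
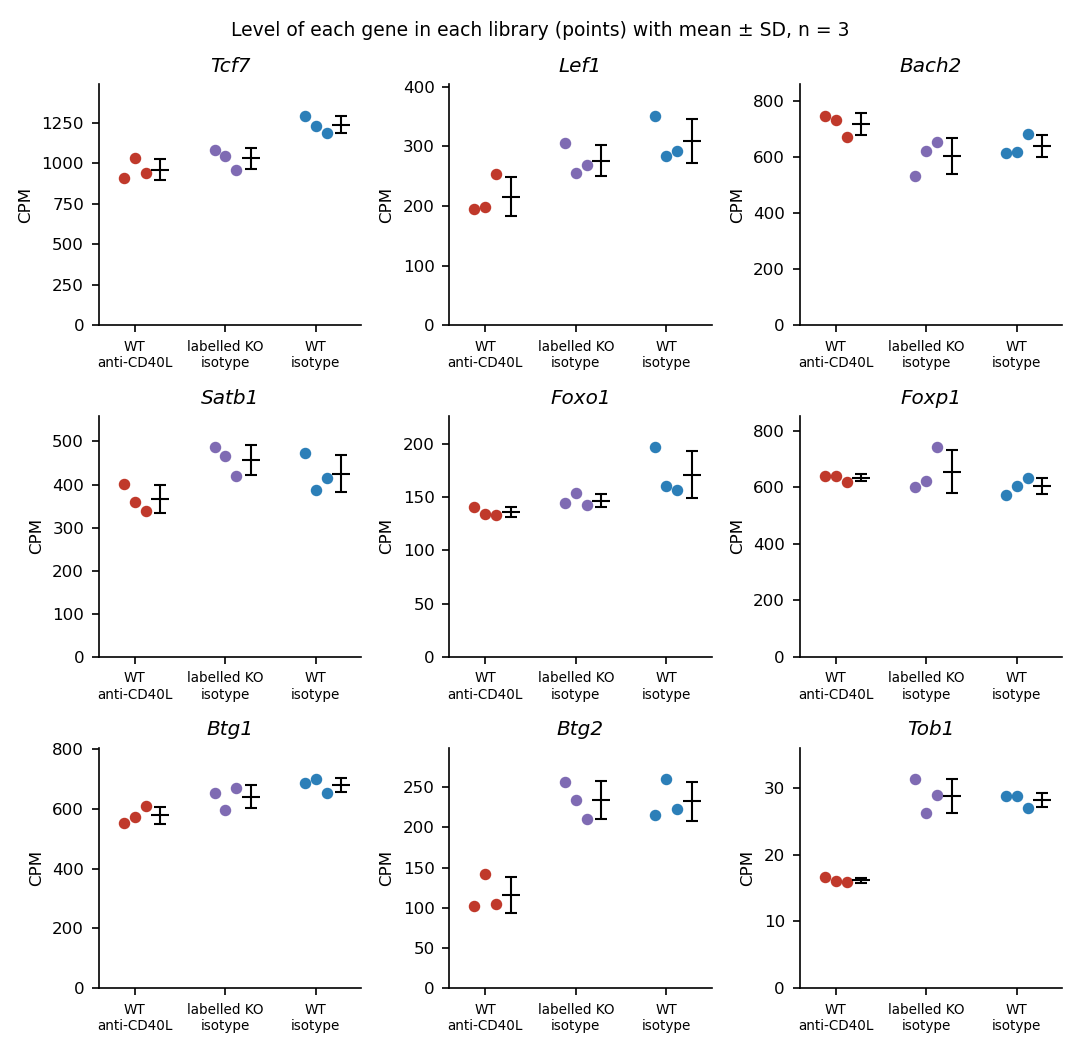
CPM (linear axis from 0) of each of the 9 genes in every library, with points for libraries and bars for the mean ± SD of 3 libraries; WT anti-CD40L is left, the libraries labelled KO in the middle and WT isotype right. For Btg2 and Tob1 the WT anti-CD40L points sit below all points of the other 2 groups, and for Bach2 and Foxp1 the groups of WT cells overlap.

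The antiproliferative genes came first in size. Btg2, an immediate-early and p53-induced gene in many cell types, had 102, 141 and 104 CPM on anti-CD40L, 257, 234 and 210.3 CPM in KO libraries, and 215, 260.04 and 222 CPM on isotype. The 3 anti-CD40L libraries were the 3 lowest of all 9, with a wide gap to the next, and the KO and isotype libraries interleaved. The mean was 116 ± 22.1 CPM on anti-CD40L, 234 ± 23.2 CPM in KO libraries and 232 ± 24.2 CPM on isotype (SD, n = 3 each). Against WT isotype the level on anti-CD40L was 2.0-fold lower (log2 -1.0 ± 0.13 SE, edgeR adjusted p = 0.000388).

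Tob1, first described as a binding partner of the ERBB2 receptor and a brake on T cell activation, had 16.6, 16.1 and 15.9 CPM on anti-CD40L, 31.3, 26.2 and 28.9 CPM in KO libraries, and 28.8, 28.8 and 27.0 CPM on isotype. It showed the same arrangement as Btg2, with the 3 anti-CD40L libraries lowest and close together. Its mean was 16.2 ± 0.364 CPM on anti-CD40L, 28.8 ± 2.56 CPM in KO libraries and 28.2 ± 1.05 CPM on isotype. The level on anti-CD40L was 1.74-fold lower than on isotype (log2 -0.80 ± 0.13 SE, edgeR adjusted p = 0.00189). The calls of Btg2 and Tob1 held when each of the 9 libraries was left out in turn and in each other fit that was run.

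Btg1, the closest relative of Btg2, had 553, 572 and 609 CPM on anti-CD40L, 651, 597 and 671 CPM in KO libraries, and 686, 699.7 and 654 CPM on isotype. All 3 anti-CD40L libraries lay below the 3 isotype libraries, while 1 KO library fell among them. The difference from isotype was -0.23 ± 0.08 on the log2 scale (edgeR adjusted p = 0.0716, 95% interval -0.40 to -0.07), so it missed the threshold. It was called lower by DESeq2 and by limma-voom, with adjusted p of 0.0166 and 0.0287.

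The windows just upstream of the RefSeq transcript starts of the genes that fell most are given below for a view of what lies there; neither chromatin nor binding was measured in these libraries. Each window spans 250 bases before the start in assembly GRCm38.p6, written 5′ to 3′ on the gene's strand, from RefSeq. Capitals mark TGACGTCA (the full cAMP response element, in Btg2), TATAAA (in Tob1) and GGGCGG (the GC box), searched on both strands. The GC boxes of Btg2 overlap in 1 run, except the last, which stands apart. The Btg2 window is chr1:134079156-134079405 on the minus strand and the Tob1 window is chr11:94211204-94211453 on the plus strand.
Btg2: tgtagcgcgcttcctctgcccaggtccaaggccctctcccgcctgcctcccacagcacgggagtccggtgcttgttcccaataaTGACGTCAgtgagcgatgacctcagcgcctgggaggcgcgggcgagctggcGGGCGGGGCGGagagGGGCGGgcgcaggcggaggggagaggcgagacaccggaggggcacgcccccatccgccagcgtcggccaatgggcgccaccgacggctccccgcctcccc
Tob1: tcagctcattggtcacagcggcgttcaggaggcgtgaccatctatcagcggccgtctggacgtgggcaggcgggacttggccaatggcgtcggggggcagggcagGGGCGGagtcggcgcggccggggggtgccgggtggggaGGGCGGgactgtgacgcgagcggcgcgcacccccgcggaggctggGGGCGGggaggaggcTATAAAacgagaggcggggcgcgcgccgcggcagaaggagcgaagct

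TGACGTCA was found in 1.55% of the 32851 RefSeq start windows of the same length and in the window of 1 of the 9 genes, Btg2. TATAAA was found in 12.4% of all windows and in a window of 4 of the 9 genes. GGGCGG was found in 32.7% of all windows and in a window of 8 of the 9 genes. The 9 genes had 19 windows between them, and 12 of these held it. The forkhead motif GTAAACA was in 3.17% of all windows and in 1 of the 9 genes, Btg1, and the TCF/LEF motifs CTTTGA and CTTTGT were in 13.8% and 16.5% of all windows and in 3 of the genes each. The AP-1 motif TGAGTCA was in 4.46% of all windows and in none of these 19. The genes differ in their number of windows, so these counts are descriptions only.

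Among the transcription factors, the TCF/LEF pair was lower on anti-CD40L. Tcf7 had 909, 1036 and 942 CPM on anti-CD40L, 1085, 1046 and 962 CPM in the libraries labelled KO, and 1294, 1230.0 and 1189.6 CPM on isotype. The 3 isotype libraries stood highest of all 9, and the anti-CD40L and KO libraries overlapped. The mean was 962 ± 66.0 CPM on anti-CD40L, 1031 ± 62.8 CPM in KO libraries and 1238 ± 52.5 CPM on isotype, and the level on anti-CD40L differed from isotype by -0.36 ± 0.08 on the log2 scale (edgeR adjusted p = 0.0144).

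Lef1 had 195, 199 and 254 CPM on anti-CD40L, 305, 255 and 268 CPM in KO libraries, and 351, 283 and 293 CPM on isotype. No anti-CD40L library reached any library of the other 2 groups, although its replicate 3 lay just under the lowest KO library. The mean was 216 ± 33.2 CPM on anti-CD40L, 276 ± 25.9 CPM in KO libraries and 309 ± 36.7 CPM on isotype. Against isotype the difference was -0.52 ± 0.12 (log2, edgeR adjusted p = 0.0154).

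Foxo1 had 141, 134 and 133 CPM on anti-CD40L, 144, 154 and 142 CPM in KO libraries, and 197, 160.3 and 156 CPM on isotype. The 3 groups did not overlap, with anti-CD40L lowest and isotype highest. The difference between anti-CD40L and isotype was -0.33 ± 0.09 (log2, edgeR adjusted p = 0.0410). This call was the least stable of the 5: it was lost in 9 of 16 other settings, and without WT isotype replicate 1 the difference was -0.21 with an edgeR adjusted p of 0.190. The calls of Tcf7 and Lef1 were lost without WT anti-CD40L replicate 1 (edgeR adjusted p = 0.0756 and 0.0717) or without WT isotype replicate 1 (0.0790 and 0.0809). With 1 of these libraries left out, only Btg2 and Tob1 of the 9 were called. The calls over all genes fell too, from 1055 of 11256 with all libraries. They were 486 of 11427 without WT anti-CD40L replicate 1 and 495 of 11406 without WT isotype replicate 1.

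The other 3 factors did not pass the test. Satb1 had 401, 359.9 and 337 CPM on anti-CD40L and 473, 388 and 415 CPM on isotype, with 1 anti-CD40L library inside the isotype range (log2 -0.22, 95% interval -0.42 to -0.01, edgeR adjusted p = 0.178). Foxp1 had 639.6, 640.4 and 619.7 CPM on anti-CD40L and 574, 604 and 633 CPM on isotype (log2 0.07, 95% interval -0.12 to 0.26, edgeR adjusted p = 0.658). Its KO libraries had 602, 622 and 741 CPM, the last the highest of all 9.

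Bach2, like Foxp1, had a higher mean on anti-CD40L than on isotype. Its levels were 747, 732 and 672 CPM on anti-CD40L, 531, 622 and 654 CPM in the libraries labelled KO, and 613, 619 and 684 CPM on isotype. The anti-CD40L libraries lay above all KO libraries and overlapped the isotype libraries. The difference from isotype was 0.17 (log2, 95% interval -0.03 to 0.36, edgeR adjusted p = 0.259).

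**Figure D2:**
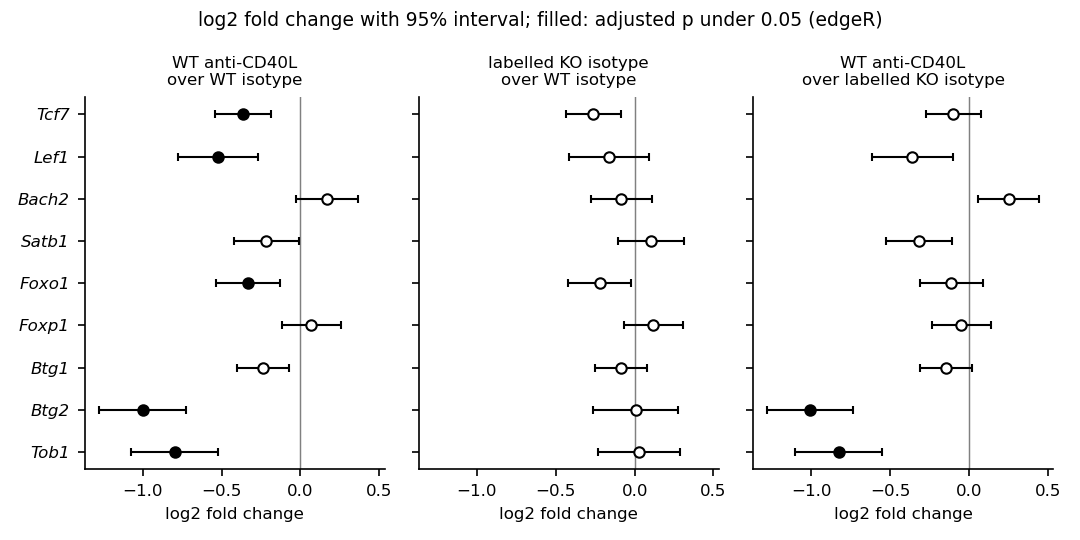
log2 fold change of each gene with its 95% interval in the 3 comparisons (x axis, log2 scale; filled points have an edgeR adjusted p under 0.05). Btg2 and Tob1 lie near -1.0 and -0.80 for WT anti-CD40L over WT isotype and near 0 for the libraries labelled KO over WT isotype.

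Between the libraries labelled KO and WT isotype, none of the 9 genes was called, and neither was any of the 11256 genes (0% called by the edgeR quasi-likelihood test, with 649 genes at an unadjusted p under 0.05). Some genes were called by DESeq2 (44, 0.391%), by limma-voom (32, 0.284%) and by edgeR with no filter (102, 0.519% of those it tested), and none of the 9 was among them. The largest difference was that of Tcf7, -0.26 on the log2 scale (95% interval -0.44 to -0.09, edgeR unadjusted p = 0.00612 and adjusted p = 0.632), and its KO libraries lay below all isotype libraries. Foxo1 followed with -0.22 (95% interval -0.42 to -0.02, edgeR adjusted p = 0.816), again with no overlap. These 2 of 9 stand beside 7.62% of all genes whose KO libraries all lay lower. For Btg2 the interval of the difference was -0.26 to 0.28 and for Tob1 -0.23 to 0.29, around differences of 0.01 and 0.03, so the differences seen on anti-CD40L lay outside them.

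The same isotype libraries serve as reference for both comparisons above, so the anti-CD40L and KO libraries were also set against each other, which tests the difference between the 2 effects. Btg2 fell by 1.01 ± 0.13 and Tob1 by 0.83 ± 0.13 on the log2 scale (SE, edgeR adjusted p = 0.000442 and 0.00162), beside 5.04% of all genes called lower and 1.79% higher. The other 7 did not pass. The nearest were Satb1, at -0.32 (95% interval -0.53 to -0.11, edgeR adjusted p = 0.0679), and Lef1, at -0.36 (95% interval -0.61 to -0.10, edgeR adjusted p = 0.0895). Satb1 had 486, 466 and 419.6 CPM in KO libraries, all above the anti-CD40L libraries. Bach2 differed by 0.25 in the opposite direction (95% interval 0.06 to 0.45, edgeR adjusted p = 0.121). For Tcf7 and Foxo1 the differences were -0.10 (95% interval -0.27 to 0.08) and -0.11 (95% interval -0.31 to 0.09). Of the 9 genes, 5 had all anti-CD40L libraries below all KO libraries, beside 15.9% of all genes, and Bach2 alone had them above, beside 10.3%. Other tools called more of the 9: DESeq2 added Satb1 (10.8% of all genes called), edgeR with no filter added Satb1 and Lef1 (6.64%), and limma-voom added Satb1, Lef1 and, as higher, Bach2 (13%). Without WT anti-CD40L replicate 3, edgeR called Btg2 (-0.93), Tob1 (-0.80) and Lef1 (-0.48).

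**Figure D3:**
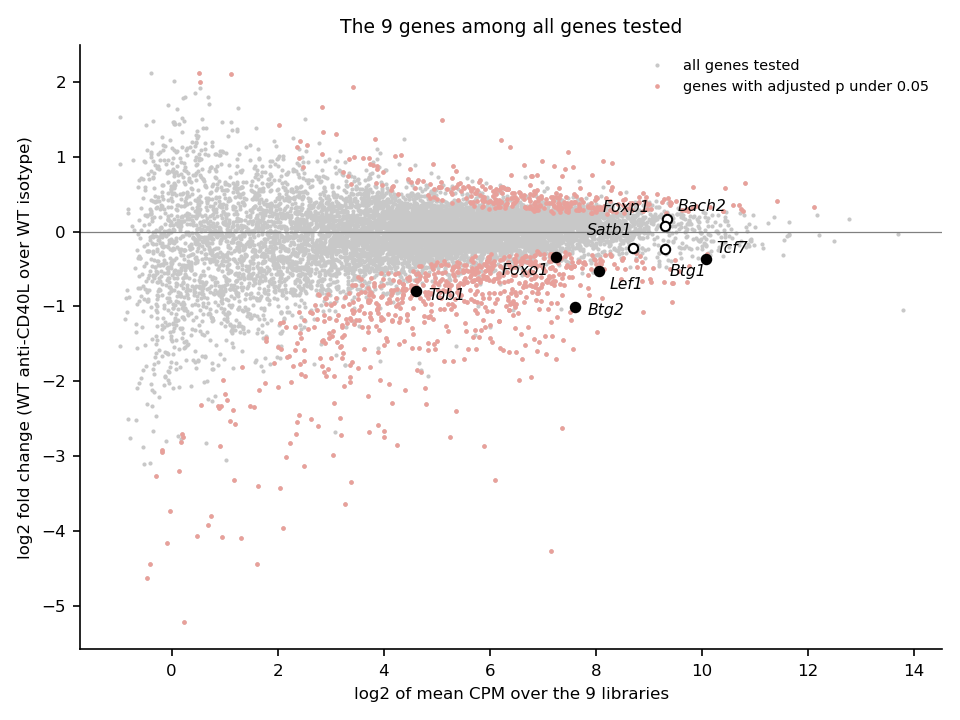
log2 fold change of WT anti-CD40L over WT isotype (y axis) against log2 mean CPM over the 9 libraries (x axis) for all 11256 tested genes; called genes are coloured, and the 9 genes are named, with filled points for those called. Btg2 lies at -1.0, while Bach2 and Foxp1 lie above 0.

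Lef1 was also examined for its promoters, after values of its transcripts had been seen. The gene has a long form, whose first exon encodes the N-terminal region that binds β-catenin, and a form that starts inside the gene and lacks it. One transcript of the table holds the long first exon, matched to GENCODE coordinates chr3:131110471-131111678 (GRCm38, 1208 bases), and another starts with an exon of 24 bases at chr3:131112797-131112820; apart from their 3′ ends the other exons are the same in GENCODE, so the difference of their counts was taken as net reads of the first exon. The windows of 250 bases upstream of the distal start (chr3:131110047-131110296) and of an internal start (chr3:131112541-131112790), both on the plus strand of GRCm38.p6 from RefSeq, show the DNA ahead of each form, with capitals for GGGCGG.
Lef1 distal start: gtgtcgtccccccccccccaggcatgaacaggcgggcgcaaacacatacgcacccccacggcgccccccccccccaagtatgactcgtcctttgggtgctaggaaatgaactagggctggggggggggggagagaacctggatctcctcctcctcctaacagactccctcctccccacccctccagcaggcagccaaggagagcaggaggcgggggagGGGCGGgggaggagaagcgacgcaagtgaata
Lef1 internal start: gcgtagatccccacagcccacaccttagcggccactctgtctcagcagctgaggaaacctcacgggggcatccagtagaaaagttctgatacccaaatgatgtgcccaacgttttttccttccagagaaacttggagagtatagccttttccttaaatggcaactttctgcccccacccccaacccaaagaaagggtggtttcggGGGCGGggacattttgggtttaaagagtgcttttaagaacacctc

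The net reads of the first exon made up 2.76%, 4.06% and 1.13% of the count of the long transcript on anti-CD40L, 9.62%, 7.94% and 8.83% in KO libraries, and 9.56%, 8.73% and 7.19% on isotype. The 3 anti-CD40L libraries were the lowest of all 9, and the KO and isotype libraries overlapped. The means were 2.65% ± 1.47 on anti-CD40L, 8.79% ± 0.842 in KO libraries and 8.497% ± 1.20 on isotype (SD, n = 3 each). They rest on 15 to 79.5 net counts per anti-CD40L library, 270.5 to 372.5 per KO library and 183.5 to 374.5 per isotype library. In CPM, the first-exon reads averaged 5.44 ± 2.60 on anti-CD40L, 24.4 ± 4.60 in KO libraries and 26.4 ± 6.43 on isotype, and all other Lef1 reads averaged 210.4 ± 35.4 on anti-CD40L, 252 ± 21.3 in KO libraries and 282 ± 30.99 on isotype.

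Of 1130 genes with such a pair of transcripts, 446 passed the minimum counts and were tested. The share of Lef1 first-exon reads fell by 1.63 ± 0.27 on the log2 scale on anti-CD40L relative to isotype (edgeR quasi-likelihood test with the long transcript's count as offset, adjusted p = 0.0244 over the 446 genes). Relative to the KO libraries it fell by 1.67 ± 0.27 (edgeR adjusted p = 0.0183), and the difference between KO and isotype libraries was 0.04 (adjusted p = 0.995). Lef1 was the 1 gene called among the 446 (0.224%), and the median change over them was -0.06. The median first-exon share over the 446 genes was 5.74%, 6.08% and 5.61% in the anti-CD40L libraries, 6.56%, 6.13% and 6.42% in KO libraries, and 6.36%, 6.75% and 6.43% on isotype. All 3 anti-CD40L libraries thus lay below the other 6 on this measure too, by a smaller margin than for Lef1, and the part of this shift in the Lef1 result was not tested. The call against isotype held without WT anti-CD40L replicates 2 or 3, and was lost without each of the other 7 libraries, the difference ranging from -2.04 to -1.33 and the edgeR adjusted p from 3.28e-05 to 0.320. The call against the KO libraries was lost without the same 7 (edgeR adjusted p from 1.86e-05 to 0.162 over all 9 omissions). The read counting and use of strand are not known, and GENCODE ends can differ from RefSeq ends, so the exon limits are approximate.

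**Figure D4:**
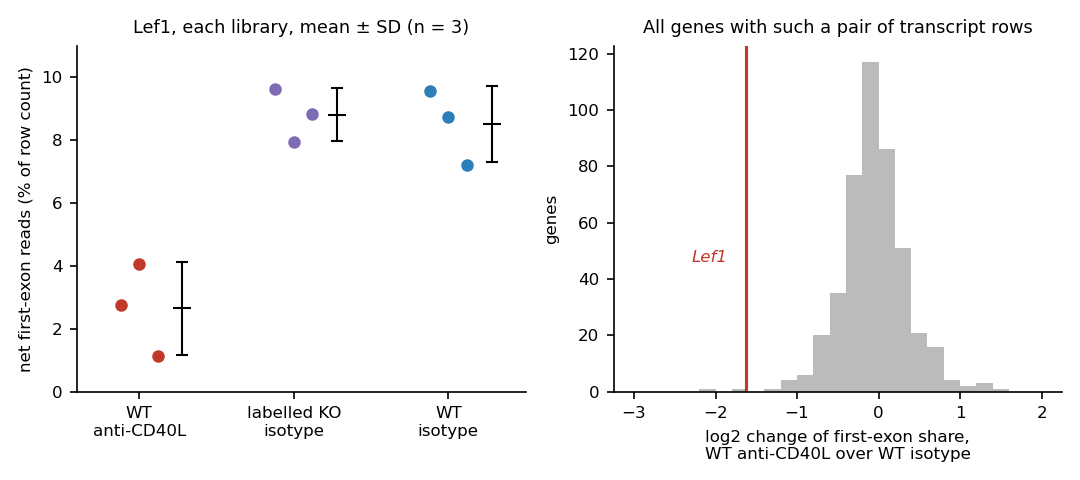
Left, net first-exon reads as a percentage of the long Lef1 transcript's count in each library (points) with mean ± SD of 3 libraries; the anti-CD40L libraries lie between 1.13% and 4.06%, and the other 6 between 7.19% and 9.62%. Right, the log2 change of this share (WT anti-CD40L over WT isotype) in 446 genes, with Lef1 marked at -1.63.

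Related genes were listed to see whether the change extends to the families. The lists here and below were chosen with earlier results of these data known, so their counts are descriptions only. Of 13 paralogs of the 9 genes, 9 were tested. On anti-CD40L 2 were called lower than on isotype and none higher, beside 6.46% and 2.91% of all genes tested. The median log2 difference was -0.04. Bach1, a haem-sensing BACH factor, fell to 36.4 ± 6.86 CPM on anti-CD40L, against 83.4 ± 10.1 CPM on isotype (log2 -1.19 ± 0.13, edgeR adjusted p = 0.000174), while Bach2 did not pass. Foxo4, a FOXO factor, fell to 14.3 ± 4.68 CPM, against 24.995 ± 0.842 CPM on isotype (log2 -0.78 ± 0.19, edgeR adjusted p = 0.0224). Tob2, the paralog of Tob1, and Btg3 differed by 0.03 and 0.29 on the log2 scale and did not pass, nor did Foxo3 (-0.10), Foxp3 (-0.03), Foxp4 (0.06), Tcf7l1 (-0.04) or Tcf7l2 (-0.66). The difference between any gene and its paralog was not tested. Between KO and WT isotype libraries no paralog was called.

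Of 13 genes listed as FOXO targets in lymphocytes or other cell types, all were tested. On anti-CD40L relative to isotype 9 fell, beside 6.46% of all genes tested, and none rose. The median log2 difference over the 13 was -1.46. Il7r, which encodes the IL-7 receptor α chain, averaged 10.4 ± 3.09 CPM on anti-CD40L and 196 ± 49.9 CPM on isotype (log2 -4.27, edgeR adjusted p = 4.21e-07). S1pr1, the receptor that guides lymphocyte exit from lymphoid organs, averaged 38.8 ± 5.36 CPM on anti-CD40L and 238 ± 36.95 CPM on isotype (log2 -2.63), and Pik3ip1, an inhibitor of PI3K, 11.3 ± 2.29 CPM on anti-CD40L and 58.6 ± 9.42 CPM on isotype (log2 -2.39). Relative to the KO libraries 9 of the 13 fell too, beside 5.04% of all genes tested. The log2 differences were -4.46 for Il7r, -2.47 for S1pr1 and -2.26 for Pik3ip1. Between KO and WT isotype libraries none of the 13 was called.

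Of 12 genes of the PI3K and AKT pathway, which controls FOXO1's place in the cell, 2 fell on anti-CD40L: Sgk1, a kinase that also phosphorylates FOXO factors, to 3.92 ± 1.69 CPM against 11.7 ± 0.243 CPM on isotype, and Inpp5d, the phosphatase SHIP1, to 59.1 ± 10.96 CPM against 93.5 ± 4.93 CPM on isotype. The median over the 12 was -0.17, and the same genes, Sgk1 and Inpp5d, fell relative to the KO libraries. Beside the counts in this paragraph, 6.46% of all genes tested were called lower against isotype and 5.04% against the KO libraries. Of 14 TCF/LEF partners and targets, 12 were tested and 3 fell. These were Axin2, Bcl6 and Tle5. Axin2, a Wnt feedback inhibitor, averaged 10.6 ± 1.89 CPM on anti-CD40L against 23.1 ± 5.16 CPM on isotype (log2 -1.11). Bcl6, a transcriptional repressor used by follicular helper T cells, averaged 48.9 ± 14.6 against 85.6 ± 21.7 CPM (log2 -0.80). Tle5, a member of the Groucho family, averaged 82.0 ± 16.6 against 117 ± 5.72 CPM (log2 -0.53). The median over the 12 partners and targets tested was -0.26. Axin2 and Bcl6 also fell relative to the KO libraries, with log2 differences of -1.04 and -0.98. Of 10 genes restrained by BACH2 or coding for its small MAF partners, 6 were tested and none was called against isotype, with a median of -0.18. Against the KO libraries Prdm1, the effector factor BLIMP-1, fell to 1.40 ± 0.610 CPM on anti-CD40L, against 3.85 ± 0.734 CPM in KO libraries (log2 -1.53, edgeR adjusted p = 0.0357).

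Of 16 genes of the deadenylation machinery that BTG/TOB proteins recruit or bind, all were tested. On anti-CD40L relative to isotype 1 rose, beside 2.91% of all genes tested. Pabpc4, a cytoplasmic poly(A)-binding protein, averaged 372 ± 24.1 CPM on anti-CD40L and 310.4 ± 12.9 CPM on isotype (log2 0.26, edgeR adjusted p = 0.0464). The list's median was 0.13, and none of the 16 was called against the KO libraries. Of 18 other genes of quiescence, 17 were tested and 6 fell against isotype, among them Klf2 (62.7 ± 8.59 CPM on anti-CD40L against 194 ± 38.3 CPM on isotype), Cdkn1b, the cell cycle inhibitor p27 (21.9 ± 4.30 against 65.9 ± 6.69 CPM), and Klf3 (27.6 ± 13.6 against 70.7 ± 15.6 CPM). The median over the 17 was -0.40, and 5 fell relative to the KO libraries. Beside these counts and those of the T cell identity genes, 6.46% of all genes tested were lower against isotype. Against the KO libraries the share was 5.04%. Klf2 and Cdkn1b also stand in the FOXO target list. Of the 14 T cell identity genes, Runx1 and Ets1 fell relative to isotype, by 0.58 and 0.46 on the log2 scale, and Runx1 also relative to the KO libraries. None of these lists had a gene called between KO and WT isotype libraries. Of the B cell markers 8 were tested, and Fcer2a was among those that fell on anti-CD40L relative to isotype, while none was called relative to the KO libraries. Of the myeloid markers 2 were tested and both, Itgam and Fcgr3, fell relative to isotype, where they averaged 1.62 and 1.67 CPM, and Itgam also fell relative to the KO libraries. None of the natural killer markers and 1 each of the dendritic cell and CD8 markers were tested, and neither was called.

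**Figure D5:**
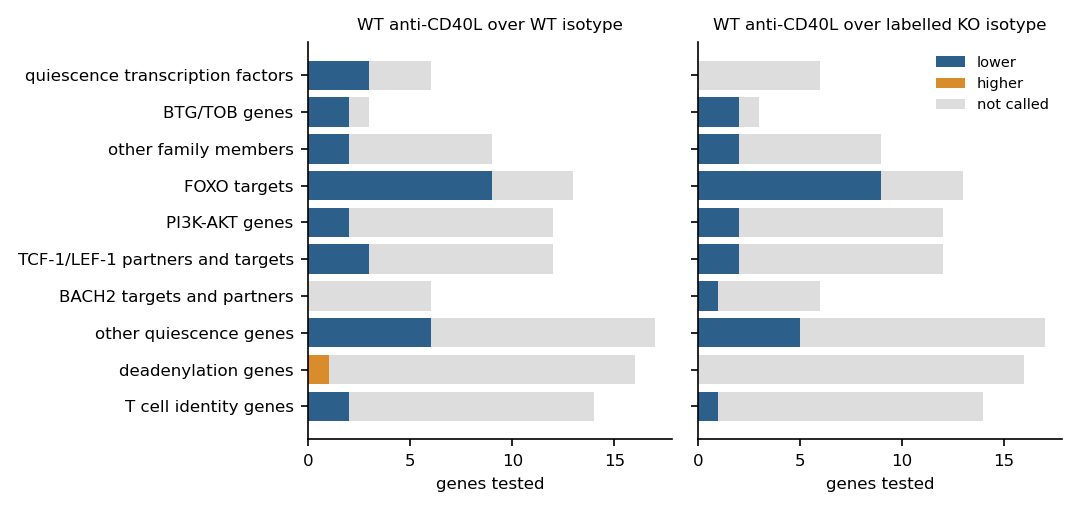
Number of tested genes in each list (bar length) and how many were called lower (blue) or higher (orange) by the edgeR quasi-likelihood test, for WT anti-CD40L over WT isotype (left) and over the libraries labelled KO (right). Of 13 FOXO target genes, 9 were lower against WT isotype and 9 against the libraries labelled KO, beside 6.46% and 5.04% of all genes tested.

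Over the 9 libraries, the gene most alike in log2 CPM to Btg2 among 10305 compared was H2-Ob, with a Pearson r of 0.99, and the gene most alike to Tob1 was Lpp, with 0.98. Within groups, after subtracting each group's mean, these were 0.87 and 0.50. For Tcf7 it was Arhgap1 (0.97), for Lef1 Dck (0.98), for Bach2 Mkln1 (0.97), for Satb1 Slc31a2 (0.97), for Foxo1 Tnip1 (0.94), for Foxp1 Acvr2a (0.98) and for Btg1 Nrbf2 (0.94). Among the 9 genes, Btg2 and Tob1 had the highest r with each other, 0.95, and Bach2 and Tob1 the lowest, -0.77. The points share library depth and group, and each gene was picked as the highest of many, so the values describe these libraries only.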

How the data were processed

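Bulk RNA sequencing of 9 libraries in 3 groups of 3 was analysed. The authors deposited a table of expected counts per RefSeq transcript (42361 transcripts), not normalized, with all values multiples of 0.5; the fractions were rounded to whole numbers, where the design had assumed whole counts. CASAVA 1.8.2, HISAT2 2.1.0 and mm10 come from the submitters' processing notes. How reads were counted, with what strand setting, was not given in the sources used here; paralogs and overlapping genes could share reads. Per the labels' protocols, RNeasy columns with DNase and the KAPA mRNA HyperPrep kit were used.

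Of the transcripts, 42198 were named through RefSeq and 70 through GENCODE, and 93 had no symbol. The transcript of highest total was kept per gene. edgeR 4.0.16 (R 4.3.3) was run with TMM scaling, the filterByExpr filter and the quasi-likelihood test over all 9 libraries with 1 term per group, with Benjamini-Hochberg adjustment over 11256 genes and a threshold of 0.05. Total counts were 5316482 to 15565711 per library. CPM are scaled by TMM, and intervals are 95%. In simulated data for WT anti-CD40L against WT isotype (11134 genes), genes changed 1.5-fold were recovered at 38.8% and 2-fold at 79.2%. For KO against WT isotype (11089 genes) recovery was 52.1% at 1.5-fold and 65.1% at 2-fold, so changes of this size can be missed. That simulation held many changed genes and gave 147 calls, while the real comparison gave none. The Benjamini-Hochberg adjustment is stricter with fewer changed genes, so recovery in the real KO comparison can be lower than these shares. Alternatives were DESeq2 1.42.0, RLE scaling, no filter, limma-voom (limma 3.58.1) with quality weights, a fit of 2 groups only, a replicate block, the mean over transcripts, and leaving out each library.

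For first exons, a transcript with at least 200 bases of its own was compared with one of the same gene with at most 100. Genes were tested that had at least 90 net counts in total and at least 10 counts of the first-named transcript in each library. The comparison was chosen after values were seen. The genes and lists were chosen with earlier results of these data known. The named genes are the 9 genes, the tested paralogs, up to 3 called genes per direction in each other list with a mean of at least 1 CPM, Cd40lg, and the most alike gene of each; 1 gene that the rule names is not reported here.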

Additional observations from a re-analysis of the deposited data

Results flagged for a closer look

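Btg2 and Tob1 are the genes of the 9 whose response to anti-CD40L differed from that seen in the libraries labelled KO by a test of the difference itself. Both conditions share the WT isotype libraries as reference, so the difference is that of the anti-CD40L and KO libraries. For Btg2 it was -1.01 (log2, edgeR adjusted p = 0.000442): the level averaged 116 ± 22.1 CPM on anti-CD40L and 234 ± 23.2 CPM in KO libraries (SD, n = 3 each), and all 3 anti-CD40L libraries were lower. For Tob1 it was -0.83 (log2, edgeR adjusted p = 0.00162), with 16.2 ± 0.364 CPM on anti-CD40L and 28.8 ± 2.56 CPM in KO libraries, and again all 3 anti-CD40L libraries were lower. Against WT isotype, the libraries labelled KO differed by 0.01 for Btg2 (95% interval -0.26 to 0.28) and 0.03 for Tob1 (-0.23 to 0.29), and the WT anti-CD40L libraries by -1.0 for Btg2 and -0.80 for Tob1.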

How the results depend on the processing

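For WT anti-CD40L against WT isotype, 1055 genes were called. DESeq2 called 1635 and edgeR without a filter 1698, and leaving out 1 library gave 486 to 1342 genes (486 without WT anti-CD40L replicate 1, and 495, 545 and 530 without WT isotype replicates 1, 2 and 3) and 2 to 5 of the 9 genes. For KO against WT isotype, with none called, DESeq2 called 44, no filter 102, limma-voom with quality weights 32 and the fit of 2 groups 3, and leaving out 1 library gave 0 to 2; none of the 9 genes was called in any. For WT anti-CD40L against KO, with 769 genes called, DESeq2 called 1219, no filter 1305, limma-voom 1464 and the fit of 2 groups 481, and leaving out 1 library gave 346 to 1022. There, 2 of the 9 genes were called, 4 without a filter, 5 by limma-voom, and 2 to 3 with 1 library left out. The cause was not tested.

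Differences that changed sign were near 0. For KO against WT isotype, Tob1 was -0.033 by limma-voom. With 1 library left out, Bach2 ranged from -0.147 to 0.00025, Btg2 from -0.062 to 0.095, Tob1 from -0.031 to 0.082 and the Lef1 first-exon share from -0.059 to 0.14. For WT anti-CD40L against KO, Foxp1 was 0.015 by limma-voom and ranged from -0.096 to 0.051 with 1 library left out. A minimum of 30 or 300 net counts kept the Lef1 call (edgeR adjusted p = 0.00976 and 0.00951).

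The replicate block called 954, 0 and 664 genes and 5, 0 and 3 of the 9, the last with Satb1 (edgeR adjusted p = 0.0393). Deviations of same-numbered libraries correlated by -0.134 to 0.175, and 5 of 9 libraries correlated best with their own number. Between WT anti-CD40L and WT isotype they correlated by 0.175, 0.0837 and 0.0882 for numbers 1, 2 and 3. Pairs with a KO library ranged from -0.134 to 0.0578. These few values do not settle whether the numbers pair the libraries. WT anti-CD40L replicate 3 had the lowest depth, and without it 989 genes were called against WT isotype.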
